A study of Mus musculus with 6 samples.

Results

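The 35 genes described here build and guard the endoplasmic reticulum (ER), the compartment in which a tendon cell folds procollagen before export. They were taken from the count table by gene symbol, with no filter on their values, and all 35 were found among 44788 symbols. The choice of symbols was made with earlier results of these data known. By role they are 11 chaperones and cofactors of the ER lumen, 3 protein disulfide isomerases, 8 sensors and transcription factors of the unfolded protein response (UPR) and related pathways, 3 targets of ATF4 and CHOP, 4 genes of ER-associated degradation (ERAD), and 6 genes of protein entry and of vesicle export. RNA-seq counts came from 3 libraries of wild-type (WT) and 3 of Mkx-/- tail tendon, from C57BL/6 animals whose age the labels give as 3 weeks and the study's text gives otherwise. *Mkx* encodes Mohawk, a homeobox transcription factor of tendon, and the Mkx-/- mice carry the loss in the germline, with no tissue-restricted driver named in the sources used here. Whether a library came from a single mouse or from pooled mice is not given there, and p-values measure the spread between these libraries.

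The ER stress response works in 3 arms. IRE1 (encoded by *Ern1*) splices the mRNA of XBP1, ATF6 is cut in the Golgi to release a transcription factor, and PERK (encoded by *Eif2ak3*) phosphorylates eIF2 alpha, which slows translation while that of ATF4 rises. XBP1 and ATF6 raise chaperone and ERAD genes, and ATF4 with CHOP (encoded by *Ddit3*) raises genes of amino acid supply. Secretory cells such as fibroblasts also use the OASIS family, *Creb3l1* and *Creb3l2*, and the large cargo receptor TANGO1, encoded by *Mia3*, which loads procollagen into COPII vesicles. The counts are per gene, so XBP1 splicing, ATF6 cleavage and phosphorylation were not measured.

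The libraries held between 10835070 and 14160301 counts, and the lowest count of any of the 35 genes in any library was 20. All 35 genes passed the filter on low counts, among 14550 genes in all, and each had a mean of at least 10 counts in both groups. Levels are given as CPM, counts scaled to a common library total after TMM normalization, which allows for the few genes that take most reads. *Mkx* itself was at 144, 136 and 135 CPM in the WT libraries and at 56.8, 41.4 and 38.9 CPM in the Mkx-/- libraries, with a log2 fold change (log2FC, Mkx-/- against WT) of -1.6 (standard error (SE) 0.16, edgeR quasi-likelihood test, adjusted p = 0.00183). The tendon genes *Tnmd*, *Fmod*, *Scx* and *Col1a1* had counts in every library. WT replicate 3 had 301 counts of the Y-linked gene *Ddx3y* where the other 5 libraries had 0. It had 1 count of *Xist* where the other 5 had 1289 to 1866. By these counts 1 WT library was male and no Mkx-/- library was, so sex was not balanced between the groups. WT replicate 1 stood apart from the other WT libraries in these genes, and log2FC values of the 35 genes that moved by over 1.5 times without it are given both ways.

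In the comparison of genotypes, 0 of the 35 genes passed an adjusted p of 0.05 in edgeR, where 5.44% of all tested genes did. At an unadjusted p under 0.05 there were 9 genes, 3 higher and 6 lower in Mkx-/- tendons, where 22.6% of all tested genes were under that value, 12.5% higher and 10.1% lower. DESeq2 called 2 of the 35, *Mia3* and *Creb3l1*, both lower, where it called 9.45% of all tested genes, 5.41% higher and 4.04% lower. Neither tool called any of the 35 past a fold of 2, in either direction, where 3.22% of all tested genes passed in edgeR, 1.89% higher and 1.33% lower. The median log2FC of the 35 genes was 0.025, beside -0.0037 over all tested genes, with 18 values above 0 and 17 below, and it was 0.055 without WT replicate 1. The groups did not overlap for 7 genes, 3 higher and 4 lower, and for 28.2% of all tested genes, 14.6% higher and 13.6% lower. The 3 that were higher were *Hsp90b1*, *Dnajb11* and *Creb3l2*, and the 4 that were lower were *Mia3*, *Creb3l1*, *Ern1* and *Atf6*.

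**Figure D1:**
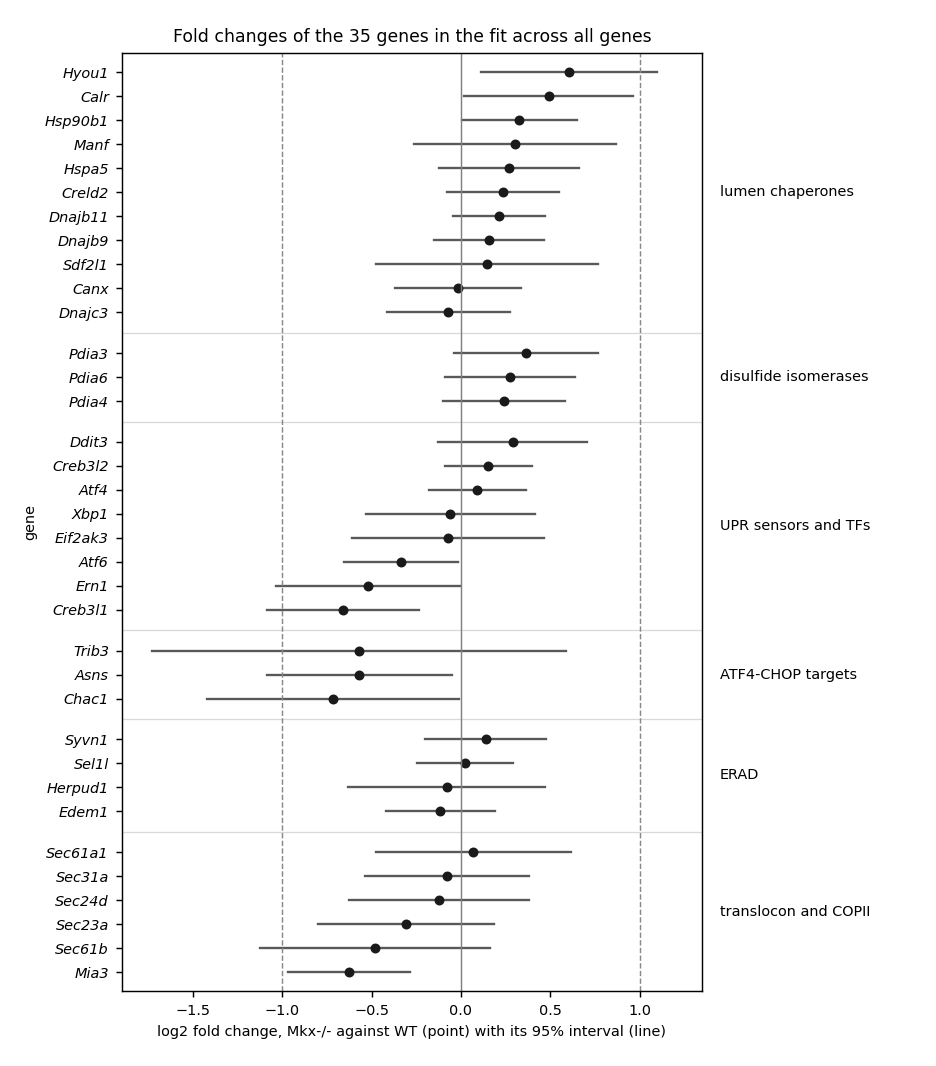
The log2FC of each of the 35 genes (points, Mkx-/- against WT, horizontal axis) with its 95% interval (lines), ordered by role, with dashed lines at a fold of 2 in either direction. Lumen chaperones and disulfide isomerases lie mostly above 0 and the ATF4-CHOP targets below 0, and 28 of the 35 intervals stay between the dashed lines.

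The intervals limit the size of the differences. The 95% interval of the log2FC lay within -1 and 1 for 28 of the 35 genes, as it did for 10045 of the 14550 tested genes, and the median standard error of the 35 was 0.18. The 7 whose interval reached past a fold of 2 were *Hyou1* on the higher side and *Creb3l1*, *Ern1*, *Asns*, *Chac1*, *Trib3* and *Sec61b* on the lower side. These intervals do not show that the other genes were equal in the groups. In bulk tissue, fewer cells of a type and less RNA per cell cannot be told apart.

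The ER lumen chaperones are the classical readout of the UPR, and many carry the ER stress element (ERSE) in their promoters, the letters CCAAT, then 9 bases, then CCACG. In RefSeq promoters (GRCm38.p6, 250 bases before to 50 after each start), 31 promoters were matched for 30 of the 35 genes, and *Hyou1*, *Manf*, *Atf6*, *Creb3l1* and *Sec61a1* had none in the table. The ERSE, on either strand, was in 8 of these 31 promoters (25.8%) and in 39 of all 32851 promoters (0.119%). The windows below show the ERSE of 7 chaperone, isomerase and ERAD genes before the RefSeq start site. They are located in mm9 by exact match and printed 5′ to 3′ on the strand where the motif reads forward, with CCAAT and CCACG in capitals. That of *Hspa5* is shortened, and it lies inside the gene as the mm9 annotation places it (from chr2:34627490, plus strand).
*Hspa5* (chr2:34627540-34627568, plus strand): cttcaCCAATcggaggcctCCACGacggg
*Hsp90b1* (chr10:86168264-86168310, plus strand): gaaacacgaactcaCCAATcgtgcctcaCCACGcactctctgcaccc
*Calr* (chr8:87370960-87371006, plus strand): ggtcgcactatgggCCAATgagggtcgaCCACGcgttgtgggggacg
*Canx* (chr11:50139288-50139334, minus strand): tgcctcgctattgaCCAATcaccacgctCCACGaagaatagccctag
*Creld2* (chr15:88649936-88649982, minus strand): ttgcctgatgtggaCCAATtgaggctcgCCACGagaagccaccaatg
*Pdia6* (chr12:17273283-17273329, plus strand): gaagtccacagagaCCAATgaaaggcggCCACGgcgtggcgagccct
*Syvn1* (chr19:6046518-6046564, plus strand): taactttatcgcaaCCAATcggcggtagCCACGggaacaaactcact

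The eighth was *Dnajc3*, and *Hsp90b1* had a further ERSE 212 bases before its start. The 8 genes with an ERSE had log2FC values from -0.070 in *Dnajc3* to 0.49 in *Calr*, with a median of 0.25, and 6 of the 8 were above 0. Over the 16 tested genes with an ERSE, which include these 8, the median was 0.086. A match is a description of the letters in this window and not of binding.

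*Hspa5*, which encodes BiP, the HSP70 of the ER and the master chaperone of the response, was at 167, 163 and 188 CPM in the WT libraries and at 197, 168 and 259 CPM in the Mkx-/- libraries. The groups overlapped, since Mkx-/- replicate 2 lay below WT replicate 3. The log2FC was 0.27 (SE 0.17, 95% interval -0.13 to 0.66, edgeR adjusted p = 0.408), and 0.080 without Mkx-/- replicate 3. *Hsp90b1*, which encodes the ER HSP90 GRP94, was at 158, 186 and 199 CPM in WT and at 243, 201 and 238 CPM in Mkx-/- tendons. All 3 Mkx-/- libraries lay above all 3 WT libraries, with Mkx-/- replicate 2 only just above WT replicate 3. Its log2FC of 0.33 (SE 0.14) did not pass (edgeR adjusted p = 0.216). *Calr* encodes calreticulin, the soluble lectin that holds glycoproteins during folding. Its level was 173, 267 and 252 CPM in WT and 355, 253 and 365 CPM in Mkx-/- tendons, with a log2FC of 0.49 (SE 0.21, edgeR adjusted p = 0.205) that was 0.32 without WT replicate 1.

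*Hyou1*, which encodes GRP170, the nucleotide exchange factor of BiP, had the largest positive log2FC of the 35 genes, 0.61 (SE 0.21, edgeR adjusted p = 0.140). It was at 17.6, 29.0 and 23.2 CPM in WT and at 33.5, 28.9 and 43.4 CPM in Mkx-/- tendons, so that Mkx-/- replicate 2 lay at the level of WT replicate 2. *Pdia3* encodes ERp57, which forms disulfide bonds in glycoproteins held by calreticulin and calnexin. It was at 111, 152 and 165 CPM in WT and at 198, 156 and 197 CPM in Mkx-/- tendons, a log2FC of 0.36 (SE 0.18, edgeR adjusted p = 0.269) that was 0.21 without WT replicate 1, the lowest WT library. The other isomerases, *Pdia6* and *Pdia4*, had log2FC values of 0.27 and 0.24, and of 0.18 and 0.13 without WT replicate 1. Of the remaining lumen genes, the secreted and retained factors *Manf* and *Creld2* were at 0.30 and 0.23, and the BiP cofactors *Dnajb11*, *Dnajb9* and *Dnajc3* at 0.21, 0.16 and -0.070. The stromal cell factor homologue *Sdf2l1* was at 0.15, and the membrane lectin *Canx*, calnexin, at -0.018. Without WT replicate 1, *Manf* was at 0.080, *Dnajb9* at 0.26, *Dnajc3* at 0.029, *Sdf2l1* at 0.082 and *Canx* at -0.16, so that the sign of *Dnajc3* turned.

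Taken as groups, 9 of the 11 lumen chaperones and 3 of the 3 disulfide isomerases had log2FC values above 0, with medians of 0.23 and 0.27. Their summed level was 992, 1200 and 1259 CPM in the WT libraries and 1469, 1204 and 1571 CPM in the Mkx-/- libraries. Mkx-/- replicate 2 thus lay within the range of the WT libraries, and the other Mkx-/- libraries above it. The median log2FC of these 14 genes was 0.25 with all libraries and 0.19 without WT replicate 1. When libraries were scaled by their total counts alone, *Hyou1*, *Calr*, *Hsp90b1* and *Pdia3* passed the test (edgeR adjusted p = 0.0332, 0.0331, 0.0306 and 0.0375), but that scaling also moved the median of all tested genes to 0.25.

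**Figure D2:**
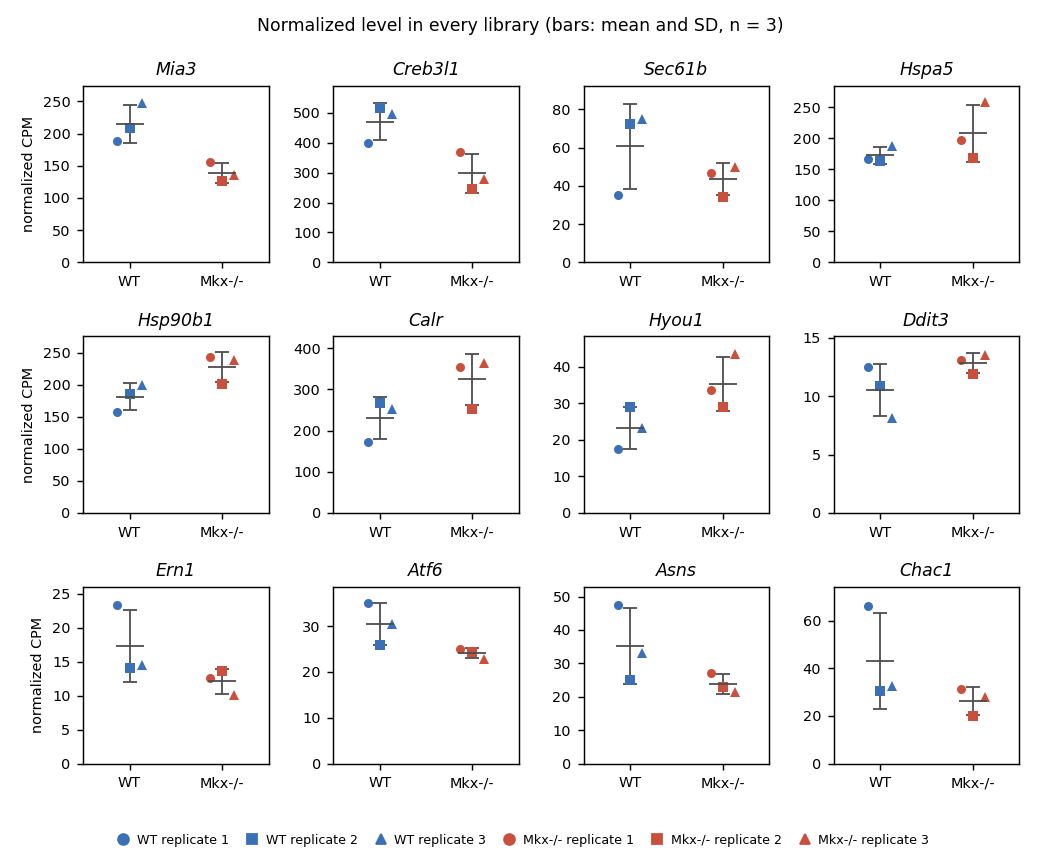
Normalized CPM of 12 of the 35 genes in every library (points, 1 marker shape per replicate number), with the mean and SD of each group of 3 (bars), on axes that start at 0. *Mia3* and *Creb3l1* have Mkx-/- libraries that all lie below the WT libraries, *Hspa5* and *Calr* overlap between the groups, and WT replicate 1 is the highest WT library for *Asns* and *Chac1* and the lowest for *Sec61b*.

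The UPR sensors and transcription factors had a median log2FC of -0.065, and of -0.23 without WT replicate 1, with 3 of the 8 genes above 0 and 5 below. *Creb3l1* encodes OASIS, a membrane-bound transcription factor that is cut like ATF6 and is known for its action on *Col1a1* in bone. The gene occupies chr2:91822485-91864659 of mm9, minus strand. Its level was 399, 515 and 496 CPM in WT and 369, 244 and 279 CPM in Mkx-/- tendons. All 3 Mkx-/- libraries were below the WT libraries, by a small margin for Mkx-/- replicate 1 against WT replicate 1. The means were 470 ± 62.0 and 297 ± 64.6 CPM (SD, n = 3 each), and the log2FC of -0.66 (SE 0.19, 95% interval -1.08 to -0.23) did not pass in edgeR (adjusted p = 0.08) and passed in DESeq2 (adjusted p = 0.0123). Without WT replicate 1 it was -0.77 (edgeR adjusted p = 0.0434), and leaving out Mkx-/- replicate 1 gave -0.87 (0.045). With Mkx-/- replicate 3 left out the edgeR adjusted p was 0.232, the highest over the alternatives. Its paralog *Creb3l2*, also known as BBF2H7, which acts on COPII genes in cartilage, was at 86.0, 80.5 and 86.1 CPM in WT and at 96.5, 90.8 and 93.7 CPM in Mkx-/- tendons, a log2FC of 0.15 (edgeR adjusted p = 0.443).

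Per kilobase of exon, *Creb3l1* had the highest mean WT level of the 34 genes with an exon length in the annotation, 180 CPM per kilobase, followed by *Atf4* at 106 and *Calr* at 80.2. In Mkx-/- tendons these 3 genes were at 114, 113 and 113 CPM per kilobase. The sensors lay low in that order, with 13.2 CPM per kilobase for *Eif2ak3*, 4.08 for *Atf6* and 2.12 for *Ern1* in WT.

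Of the 3 sensors, *Ern1* was at 23.4, 14 and 14.6 CPM in WT and at 12.5, 13.7 and 10.1 CPM in Mkx-/- tendons. The groups did not overlap, but WT replicate 1 alone stood well above the rest. The log2FC was -0.52 (SE 0.23, edgeR adjusted p = 0.217), and -0.24 without WT replicate 1. *Atf6* was at 35.1, 25.9 and 30.4 CPM in WT and at 25.1, 24.5 and 22.9 CPM in Mkx-/- tendons, a log2FC of -0.34 (SE 0.14, edgeR adjusted p = 0.199). *Eif2ak3* had a log2FC of -0.071 (edgeR adjusted p = 0.896), with 48.4 to 90.8 CPM in WT and 54.3 to 78.4 CPM in Mkx-/- tendons, and was at -0.29 without WT replicate 1.

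The groups overlapped for each of the 3 factors below the sensors. *Atf4* was at 178, 177 and 196 CPM in WT and at 211, 189 and 187 CPM in Mkx-/- tendons, a log2FC of 0.092 (95% interval -0.18 to 0.36). *Xbp1* ranged from 74.8 to 119 CPM in WT and from 75.2 to 113 CPM in Mkx-/- tendons (log2FC -0.059, and -0.23 without WT replicate 1). *Ddit3*, the gene of the stress-induced factor CHOP, was at 12.5, 10.9 and 8.09 CPM in WT and at 13.1, 11.9 and 13.6 CPM in Mkx-/- tendons. Its log2FC was 0.29 (95% interval -0.13 to 0.71, edgeR adjusted p = 0.399), and 0.44 without WT replicate 1. The annotation places *Mars* on the opposite strand over *Ddit3*. The use of strand in counting is not given in the sources used here, so reads of *Mars* could be among the counts of *Ddit3*. The same limit holds for *Hsp90b1*, *Manf*, *Pdia3*, *Pdia6*, *Herpud1*, *Syvn1*, *Sec23a* and *Sec24d*, which also overlap genes on the opposite strand. On the same strand *Manf* overlaps *Rbm15b*, and *Hsp90b1* overlaps *Gm15344* and *AC152453.1*. *Pdia4*, *Atf6* and *Eif2ak3* overlap *Mir704*, *U6* and *SNORA5* in that order. These overlaps are of whole gene spans, and overlap of exons was not examined.

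The ATF4 and CHOP targets *Asns* (asparagine synthetase), *Chac1* (a glutathione-degrading enzyme) and *Trib3* (a pseudokinase that feeds back on ATF4 and CHOP) are known for the C/EBP-ATF response element (CARE), searched here as TGATG, any base, then AA and a further base, on both strands. It was in 4 of the 31 promoters (12.9%), those of these 3 genes and of *Herpud1*, and in 3.95% of all promoters. The *Trib3* site lies 13 bases after the start. *Herpud1* also has an ERSE-II, ATTGG, 1 base, then CCACG, which was in 2 of the 31 promoters, the other being that of *Dnajb11*, and in 0.0365% of all promoters. Of the 17 sites in these promoters, 0 pairs of different motifs overlapped. The sites before the RefSeq start are printed with the fixed letters in capitals. That of *Asns* lies inside the gene as the mm9 annotation places it (chr6:7625169-7643254, minus strand).
*Asns* CARE (chr6:7643219-7643237, minus strand): ccacaTGATGaAActtccc
*Chac1* CARE (chr2:119176770-119176806, minus strand): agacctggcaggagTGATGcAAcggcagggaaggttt
*Herpud1* CARE (chr8:96910202-96910238, minus strand): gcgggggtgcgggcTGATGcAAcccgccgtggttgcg
*Herpud1* ERSE-II (chr8:96910263-96910301, plus strand): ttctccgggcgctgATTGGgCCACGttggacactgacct

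In all 4 genes with a CARE, WT replicate 1 was the highest of the 6 libraries. *Asns* was at 47.6, 24.9 and 33.2 CPM in WT and at 27.0, 22.9 and 21.5 CPM in Mkx-/- tendons, a log2FC of -0.57 (SE 0.23, edgeR adjusted p = 0.181) that was -0.30 without WT replicate 1 (adjusted p = 0.331). *Chac1* was at 66.3, 30.4 and 32.8 CPM in WT and at 31.2, 19.95 and 27.7 CPM in Mkx-/- tendons. Its log2FC of -0.72 (SE 0.31, edgeR adjusted p = 0.212), the lowest of the 35 genes, was -0.27 without WT replicate 1. *Trib3*, at 10.95, 2.45 and 3.44 CPM in WT and at 4.12, 3.16 and 4.2 CPM in Mkx-/- tendons, had a log2FC of -0.57 with all libraries and 0.36 without WT replicate 1, so that 1 library set its direction. *Herpud1*, an ERAD scaffold protein, behaved alike, with 219 CPM in WT replicate 1, 114 and 122 CPM in the other WT libraries and 134, 157 and 139 CPM in Mkx-/- tendons. Its log2FC was -0.079, and 0.28 without WT replicate 1 (edgeR adjusted p = 0.239).

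None of the other ERAD genes had a log2FC beyond 0.14 in either direction. *Syvn1*, which encodes the ubiquitin ligase HRD1, *Sel1l*, its partner, and *Edem1*, a lectin that hands over misfolded glycoproteins, had log2FC values of 0.14, 0.025 and -0.11, and of 0.055, 0.047 and -0.21 without WT replicate 1. With all libraries their 95% intervals lay between -0.42 and 0.48.

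On the export side, *Mia3* came closest to passing of all 35 genes. It was at 189, 208 and 248 CPM in WT and at 157, 126 and 136 CPM in Mkx-/- tendons. The groups did not overlap, and Mkx-/- replicate 1 was the nearest to WT. The means were 215 ± 30.2 and 139 ± 15.8 CPM (SD, n = 3 each), with a log2FC of -0.63 (SE 0.15, 95% interval -0.97 to -0.28). The edgeR adjusted p was 0.0502, at the threshold, and the DESeq2 adjusted p was 0.00423. In edgeR it passed without WT replicate 1 (adjusted p = 0.0256), and the adjusted p was highest over the alternatives with Mkx-/- replicate 3 left out (0.165). The interval did not reach a fold of 2.

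The translocon and coat genes had a median log2FC of -0.22, and of -0.41 without WT replicate 1, with 5 of the 6 below 0 in the fit of all libraries. *Sec61b*, a subunit of the channel through which nascent chains enter the ER, was at 35.1, 72.5 and 74.7 CPM in WT and at 47, 33.9 and 49.7 CPM in Mkx-/- tendons. WT replicate 1 lay among the Mkx-/- libraries, and the log2FC of -0.48 (SE 0.28, edgeR adjusted p = 0.360) was -0.76 without that library (adjusted p = 0.0324). The channel's main subunit, *Sec61a1*, was at 132, 251 and 225 CPM in WT and at 237, 175 and 226 CPM in Mkx-/- tendons, and its log2FC of 0.070 was -0.16 without WT replicate 1. The inner coat genes *Sec23a* and *Sec24d*, which select cargo, had log2FC values of -0.31 and -0.12, and the outer coat gene *Sec31a* had -0.080. Without WT replicate 1 these 3 were at -0.48, -0.33 and -0.26. *Sec24d* and *Sec23a* hold the UPRE letters, TGACGTGG, near their starts, as do 0.676% of all promoters.

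**Figure D3:**
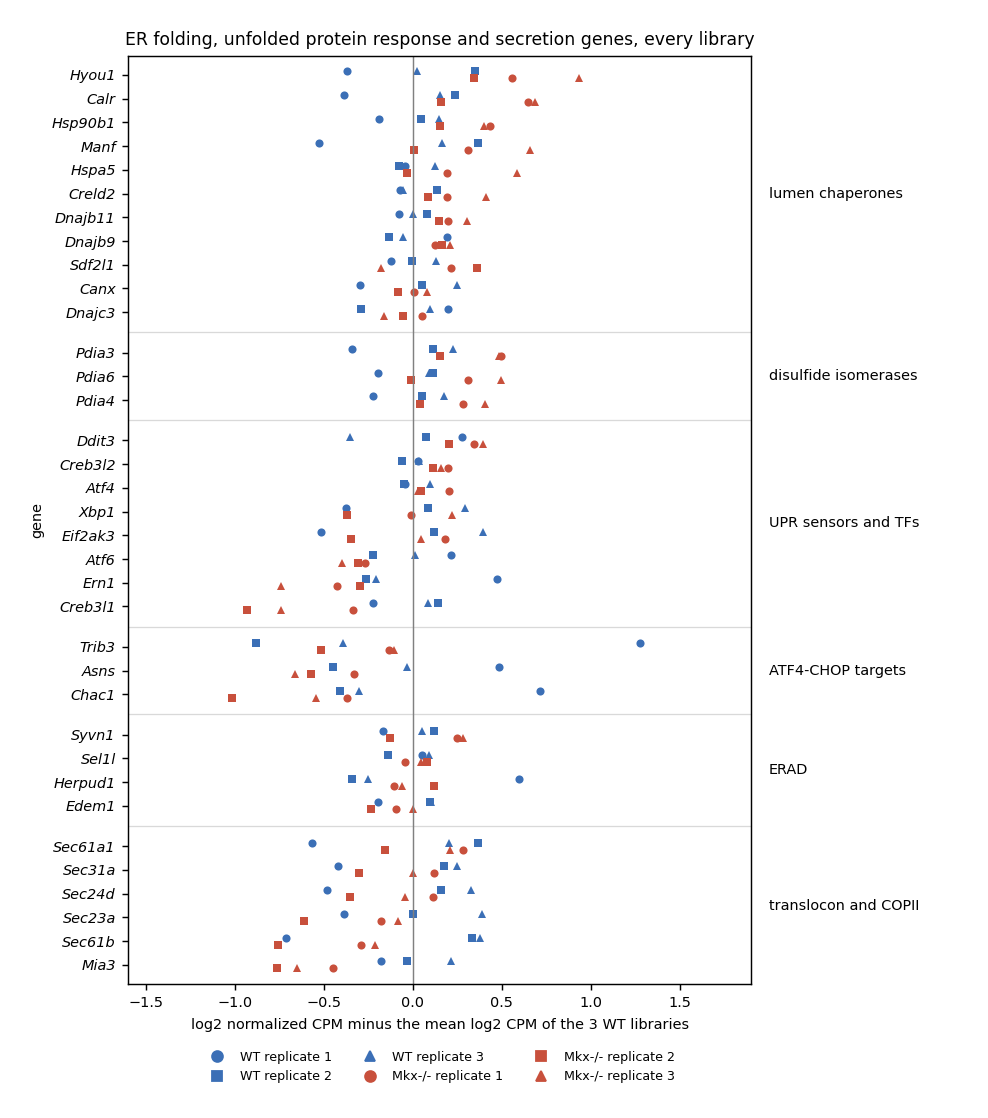
Each of the 35 genes in every library, as log2 normalized CPM minus the mean log2 CPM of the 3 WT libraries (horizontal axis), ordered by role, with WT libraries in blue, Mkx-/- libraries in red and 1 marker shape per replicate number. WT replicate 1 (blue circles) lies left of the other WT libraries in all 6 translocon and COPII genes and right of them in all 3 ATF4-CHOP targets.

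The spread among WT libraries was ordered by role. WT replicate 1 was the lowest of the 3 WT libraries in 22 of the 35 genes and the highest in 9, where it was lowest in 38.0% and highest in 38.9% of all tested genes. It was the lowest in 6 of 6 translocon and COPII genes, in 3 of 3 disulfide isomerases and in 8 of 11 lumen chaperones, and the highest in 3 of 3 ATF4-CHOP targets. Against the mean of the other WT libraries it differed by a median of -0.68 on the log2 scale in the translocon and COPII genes, by -0.29 in chaperones and isomerases together, and by 1.07 in the ATF4-CHOP targets, beside 0.014 over all tested genes. Genes of the wider lists lay the same way. WT replicate 1 was the lowest WT library in 41 of 46 other COPII and ER-Golgi genes and in 26 of 32 other translocon, signal peptidase and oligosaccharyltransferase genes, and the highest in 23 of 37 other ATF4 targets. *Col1a1* in that library was at 130859 CPM, against 225743 and 199401 CPM in the other WT libraries. Without it, 3 of the 35 genes passed the test in edgeR, *Mia3*, *Creb3l1* and *Sec61b*, all lower in Mkx-/- tendons, where 6.59% of all tested genes passed.

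**Figure D4:**
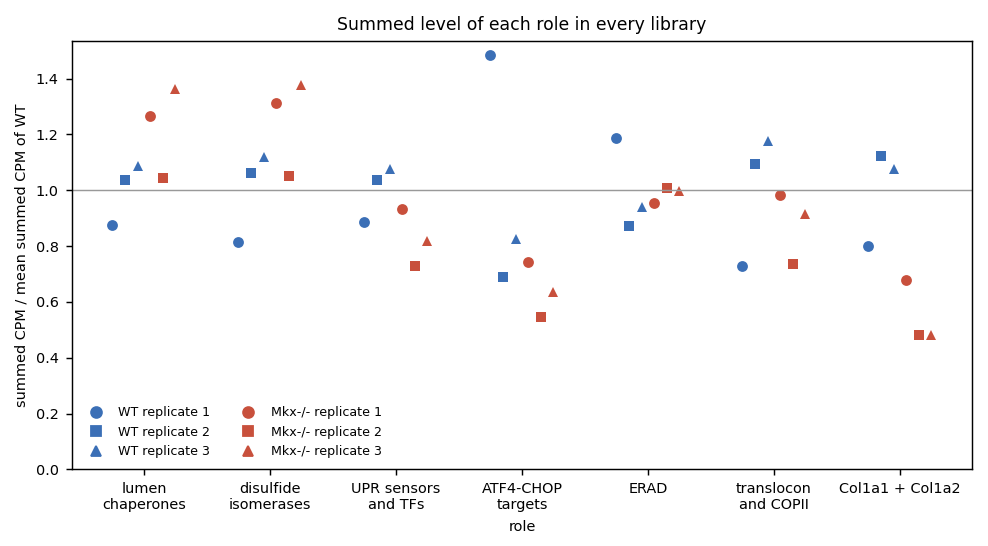
Summed CPM of the genes of each role in every library, divided by the mean of the 3 WT libraries (vertical axis from 0), with collagen I at the right. In chaperones and isomerases Mkx-/- replicates 1 and 3 lie above all WT libraries, and in collagen I all 3 Mkx-/- libraries lie below the WT libraries.

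Collagen I is the main cargo of this pathway in tendon. *Col1a1* and *Col1a2* summed to between 354466 and 497567 CPM in the WT libraries and to between 213480 and 301448 CPM in the Mkx-/- libraries, so the groups did not overlap for the sum. For *Col1a1* alone they did, since WT replicate 1 (130859 CPM) lay below Mkx-/- replicate 1 (149212 CPM). The log2FC values were -0.68 for *Col1a1*, -1.02 for *Col1a2* and -0.76 for *Sparc*, a collagen-binding protein of the matrix, and none of these passed in edgeR (adjusted p = 0.287, 0.0933 and 0.0994), while all 3 passed in DESeq2 (adjusted p = 0.0491, 5.71e-07 and 4.71e-06). The 35 genes together summed to 3175 to 3981 CPM in WT and to 3100 to 3839 CPM in Mkx-/- tendons. Per 1000 CPM of collagen I, the chaperones and isomerases stood at 2.80, 2.41 and 2.64 CPM in the WT libraries and at 4.87, 5.62 and 7.36 CPM in the Mkx-/- libraries. This ratio does not depend on the scaling between libraries. Its denominator was lower in all 3 Mkx-/- libraries than in any WT library, whereas its numerator overlapped between the groups.

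The wider pathway was read from lists of genes outside the 35. In the 6 lists of ER and stress genes together, 190 genes were tested, of which 0 passed in the higher direction and 5 in the lower direction, where 3.18% and 2.26% of all tested genes passed. At an unadjusted p under 0.05 there were 8 higher and 19 lower, where 12.5% and 10.1% of all tested genes were. DESeq2 called 0 higher and 10 lower, where it called 5.41% and 4.04% of all tested genes. The median log2FC of the 190 genes was -0.057, and -0.11 without WT replicate 1. Of 29 other ER folding genes, *Uggt1* and *Fkbp9* passed and were lower. *Uggt1* encodes the enzyme that tags misfolded glycoproteins for another round with calnexin and calreticulin. It was at 315, 278 and 317 CPM in WT and at 198, 142 and 154 CPM in Mkx-/- tendons, with no overlap (log2FC -0.88, SE 0.16, edgeR adjusted p = 0.0191, and 0.0782 with Mkx-/- replicate 3 left out). *Fkbp9*, an ER prolyl isomerase, was at 1518, 1776 and 1912 CPM in WT and at 1195, 1013 and 960 CPM in Mkx-/- tendons. Its log2FC of -0.72 (edgeR adjusted p = 0.0422) passed without WT replicate 1 and in no other fit with a library left out.

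Of 37 other targets of ATF4 and the integrated stress response (ISR), 30 had log2FC values below 0, with a median of -0.19. In edgeR 2 of them passed, both lower, where 2.26% of all tested genes passed as lower. The median was -0.098 without WT replicate 1, the highest WT library in 23 of the 37. *Slc7a11*, the cystine transporter gene, was at 30.9, 24.7 and 32.9 CPM in WT and at 1.92, 1.05 and 1.82 CPM in Mkx-/- tendons (log2FC -4.22, edgeR adjusted p = 0.000168). *Ddit4*, an inhibitor of mTORC1, was at 333, 224 and 153 CPM in WT and at 81.3, 92.6 and 48.3 CPM in Mkx-/- tendons (log2FC -1.68, edgeR adjusted p = 0.0247, and 0.0814 with WT replicate 2 left out). WT replicate 1 had the highest level of *Ddit4*, and without it the log2FC was -1.35. With any library left out, the log2FC of *Slc7a11* was between -4.39 and -3.97.

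Of 26 other stress sensors and regulators, *Creb3l3*, a further member of the OASIS family, passed and was lower, at 5.67, 17.7 and 25.0 CPM in WT and at 4.76, 1.97 and 3.49 CPM in Mkx-/- tendons (log2FC -2.26, edgeR adjusted p = 0.0476). With a library left out it passed in 1 fit, that without WT replicate 1. In the other 3 lists 0 genes passed in edgeR. At an unadjusted p under 0.05 there were 2, 2 and 3, where 22.6% of all tested genes were under that value. DESeq2 called 1, 0 and 0, where it called 9.45% of all tested genes. Of 21 other ERAD genes, *Edem3*, a mannosidase, had a log2FC of -0.62 (edgeR adjusted p = 0.0888) and was the gene called by DESeq2 (0.0469), and *Tmem129* had 0.38. Of 32 other translocon, signal peptidase and oligosaccharyltransferase (OST) genes, *Srp72* of the signal recognition particle had -0.34 and *Tusc3* had 0.29. Of 46 other COPII, cargo receptor and ER-Golgi genes, *Sec24a* had -0.71 and the exit site scaffold *Sec16a* had -0.44 (edgeR adjusted p = 0.13 and 0.15).

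**Figure D5:**
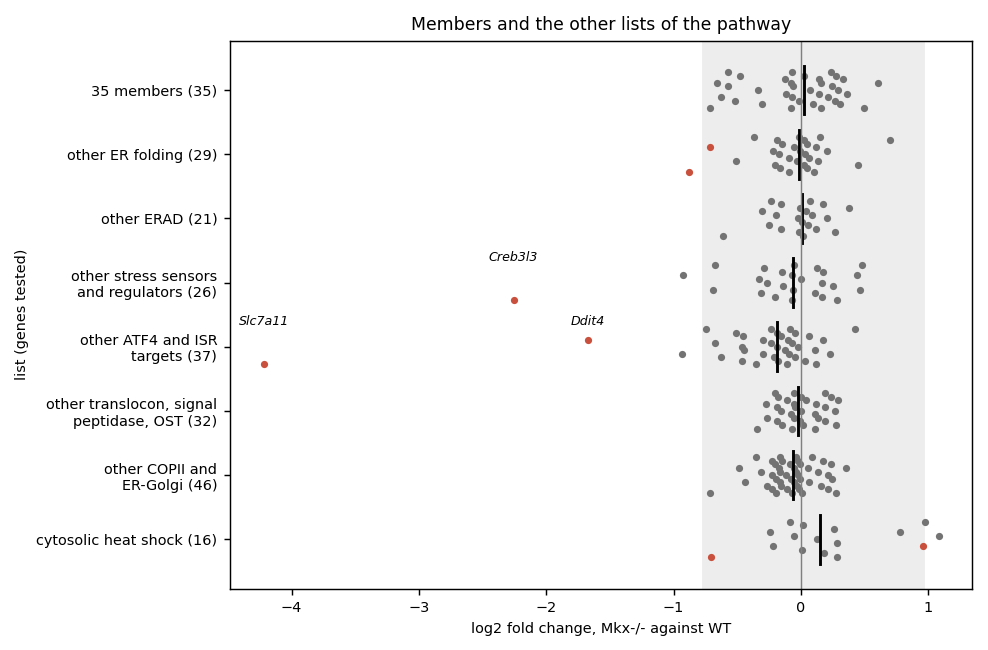
Log2FC (Mkx-/- against WT, horizontal axis) of the 35 genes and of each other list, 1 point per tested gene, in red where the edgeR adjusted p was under 0.05, with the list's median as a black line and the 5th to 95th percentile of all tested genes shaded. The 35 genes hold no red point and lie within the shaded range, and the 3 labelled genes lie far to its left.

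Markers of other cell types also differed between the groups. Of all tested genes, 3.18% passed the edgeR test as higher and 2.26% as lower. Under an unadjusted p of 0.05 there were 12.5% and 10.1%, and DESeq2 called 5.41% and 4.04%. Summed CPM of 12 skeletal muscle markers was 97.9 to 379 in WT and 520 to 2603 in Mkx-/- libraries, with 2 genes past the test in the higher direction. For 7 Schwann cell markers it was 8115 to 10730 and 12597 to 23372, with 0 past the test, 7 under an unadjusted p of 0.05 and 7 called by DESeq2. For 9 macrophage and leukocyte markers it was 531 to 570 and 335 to 361, with 2 past the test in the lower direction. For 8 endothelial markers it was 56.5 to 73.2 and 67.0 to 124, with 0 past the test, 4 under an unadjusted p of 0.05 and 2 called by DESeq2. For 6 tested of 7 listed chondrocyte markers it was 540 to 1072 and 808 to 1317. Of these 3 passed the test in the higher direction, *Acan*, *Matn3* and *Ucma*. *Col2a1*, most of that sum, overlapped between the groups (log2FC -0.084). For 4 tested of 6 listed keratinocyte and hair markers the sum was 2.76 to 10.9 and 19.0 to 20.4, with 1 past the test in the higher direction. For 2 tested of 6 listed adipocyte markers, *Car3* and *Fabp4*, it was 4.91 to 13.1 and 24.3 to 61.0. *Car3* made up most of this sum and passed in the higher direction, while *Fabp4* overlapped between the groups. The other adipocyte markers were too low to be tested. Among them *Lep* had 10, 5 and 11 counts in WT and 0 in each Mkx-/- library. For 2 tested of 6 listed osteoblast markers, *Runx2* and *Alpl*, the sum was 1.34 to 2.32 and 4.85 to 5.47, with 0 past the test. *Sp7*, *Ibsp* and *Bglap* were too low to be tested, and their counts overlapped between the groups. *Dmp1*, also untested, had 2, 3 and 4 counts in WT and 0, 1 and 0 in Mkx-/- libraries. Of 7 listed mast cell markers 1 was tested, *Kit*, which passed and was lower. The others, among them *Cpa3*, *Mcpt4* and *Tpsb2*, had at most 6 counts in any library, so *Kit* alone does not describe mast cells here. The part of these cells in the levels of the 35 genes was not tested. Plasma cells are known for a very large ER, and their markers *Igj* and *Mzb1* had at most 2 counts in any library. Of the 8 plasma and B cell markers 2 had enough counts to be tested, with log2FC values of -0.21 and 0.0027.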

How the data were processed

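RNA from tail tendon, 3 WT and 3 Mkx-/- libraries, was sequenced on the Ion Proton system. The authors cleaned the reads, aligned them to mm9 with MapSplice 2.1.6 and deposited raw counts per gene symbol, with no normalization. The counting program and its use of strand are not given in the sources used here.

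Counts were analysed with edgeR 4.0.16 in R 4.3.3 (TMM, filterByExpr, quasi-likelihood test on genotype, Benjamini-Hochberg adjustment over 14550 genes), and DESeq2 1.42.0 was an alternative to edgeR. A gene passed at an adjusted p under 0.05, and the fold threshold was a log2 fold change beyond 1. The 95% intervals use the quasi-likelihood standard error. Exon lengths and loci came from the GENCODE annotation of mm9, which held 34 of the 35 genes. An exact permutation test with 3 libraries a group cannot go below 0.1.

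The 35 genes and the lists were chosen with earlier results of these data known. Full values are given for the 10 genes with the smallest p. Of the wider lists, at most 5 genes past both thresholds were named, or else the 2 with the smallest p. *Hspa5*, *Ddit3*, *Atf4*, *Creb3l2*, *Eif2ak3*, *Xbp1*, *Trib3*, *Herpud1*, *Sec61a1* and *Sec61b* were singled out after their values were seen. Replicates differed by more than counting error (chi-square per degree of freedom of 7.59 to 36.4 between pairs).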

Additional observations from a re-analysis of the deposited data

How the results depend on the processing

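With 3 libraries a group, 1 library moved the counts. When a library was left out, between 0 and 3 of the 35 genes passed as lower (3 without WT replicate 1) and 0 as higher, and their median log2FC ran from -0.041 to 0.11. Over all genes 244 (without WT replicate 3) to 978 (without WT replicate 1) then passed. Of the 35, the number lower was 2 with DESeq2 (9.45% of all genes called in either direction) and with a filter of 1 count in any library (6.07%), and 1 with a filter of 10 counts in every library (5.31%), with a robust fit (5.53%) and with skeletal muscle markers removed (5.5%). With library size only, 4 were higher, the median was 0.28 beside 0.25 over all tested genes, and 1555 genes passed (10.7%). Counts past a fold of 2 stayed at 0 in every alternative run.

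Scaling by library size only turned the log2FC of *Canx* to 0.25, *Dnajc3* 0.17, *Eif2ak3* 0.20, *Xbp1* 0.21, *Herpud1* 0.15, *Edem1* 0.15, *Sec24d* 0.14 and *Sec31a* 0.19. Leaving out a library turned the sign within these ranges: *Canx* -0.16 to 0.096, *Dnajc3* -0.22 to 0.029, *Eif2ak3* -0.29 to 0.12, *Xbp1* -0.23 to 0.085, *Trib3* -0.93 to 0.36, *Herpud1* -0.26 to 0.28, *Sel1l* -0.056 to 0.054, *Sec61a1* -0.16 to 0.24, *Sec24d* -0.33 to 0.029 and *Sec31a* -0.26 to 0.032.

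The share of all genes that passed in either direction differed between these fits. It was 9.45% with DESeq2, 6.07% with the filter of 1 count, 5.53% with the robust fit and 10.7% with library size only. With a library left out it was 1.64% to 6.59%, beside 5.44% in the main fit. In the other lists, genes lower were 5 ATF4 targets with DESeq2, 4 with the filter of 1 count and 1 to 3 with a library left out. Stress regulators lower were 3 with DESeq2 and with the filter of 1 count, 0 with the robust fit and 0 to 1 with a library left out, and 0 to 1 were then higher. ERAD genes lower were 1 with DESeq2 and with the filter of 1 count. ER folding genes lower were 1 with library size only and 0 to 2 with a library left out. Heat shock genes higher were 3 with DESeq2, with library size only and with the filter of 1 count, and 0 to 2 with a library left out, and those lower were 0 with library size only and 0 to 1 with a library left out. Library size only also called higher 2 ER folding genes and 1 gene each of the stress, ATF4, translocon and COPII lists. The cause of these changes was not tested.

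Same-numbered libraries of the groups deviated with correlations of 0.026, -0.21 and 0.30, so the numbers were not taken as pairs. With the replicate number as a block, 434 genes passed in place of 792, among them 1 ER folding gene, 0 stress regulators and 0 of the 35 genes.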

Other observations

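The cytosolic heat shock genes, which answer misfolded protein outside the ER, were a further list of 16 tested genes with a median log2FC of 0.15 and 11 values above 0. In edgeR 1 passed as higher and 1 as lower, where 3.18% and 2.26% of all tested genes passed. *Cryab*, the small heat shock protein alpha-B crystallin, which is also abundant in skeletal muscle, was at 137, 184 and 163 CPM in the WT libraries and at 267, 331 and 341 CPM in the Mkx-/- libraries (log2FC 0.96, SE 0.16, edgeR adjusted p = 0.0157). The groups did not overlap, and with a library left out the edgeR adjusted p reached 0.0718. The summed muscle markers were at 379, 97.9 and 255 CPM in WT and at 2603, 1255 and 520 CPM in Mkx-/- libraries. Like *Cryab*, they were higher in Mkx-/- libraries, but within each group they ranked the libraries in the reverse order. The part of muscle in the level of *Cryab* was not tested. *Hsph1*, an HSP110 exchange factor of cytosolic HSP70, was at 48.5, 38.3 and 43.1 CPM in WT and at 27.7, 25.1 and 27.1 CPM in Mkx-/- libraries (log2FC -0.70, SE 0.13, edgeR adjusted p = 0.0217), also without overlap. Its counterpart in the ER lumen, *Hyou1*, had a log2FC of 0.61 that did not pass (edgeR adjusted p = 0.14).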
